A study of Mus musculus with 6 samples.

Results

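The transcripts of the tricarboxylic acid (TCA) cycle enzymes and of ATP citrate lyase were compared between tumor cells with and without a knockdown of HIF-1α, the oxygen-regulated subunit of the transcription factor HIF-1. The group held 9 genes chosen by name, Cs, Idh1, Idh2, Idh3a, Ogdh, Suclg1, Fh1, Mdh2 and Acly, out of 22880 genes in the deposited table. All 9 had enough reads to enter the test, as did 12014 genes in all. RNA was sequenced from MC-38GFP cells, a mouse colon carcinoma line carrying green fluorescent protein, which had been sorted from tumors grown in the cecum wall of C57BL/6J mice. There were 3 Mock and 3 HIF-1α-KD libraries, and the labels give no age of the mice and no time of sampling. The labels state that the cells of both groups were transduced with pLKO.1-puro and were not passaged in vivo. The sort kept GFP-positive cells and removed those with CD45, carried by leukocytes, or CD31, carried by endothelium. Neither the labels nor the methods say whether a library came from a single tumor or whether the HIF-1α-KD line was a single clone, so the p-values measure the spread between these libraries, which may be technical.

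The TCA cycle oxidizes acetyl groups in the mitochondrion and passes the electrons to the respiratory chain, while its intermediates leave the cycle for biosynthesis. Citrate that is exported to the cytosol is cleaved by ATP citrate lyase, which supplies acetyl groups for fatty acid and cholesterol synthesis. In cells short of oxygen, HIF-1 is known to raise glycolytic genes and to limit the entry of pyruvate into the cycle, and citrate can then be made from glutamine by isocitrate dehydrogenases running in reverse. The comparison of the groups addressed whether tumor cells with less HIF-1α carried different amounts of the transcripts for these enzymes.

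No member passed the test in either direction. At an adjusted p-value under 0.05 in limma, 0 of the 9 members were called, against 0.391% of all tested genes (0.00832% called higher and 0.383% called lower in HIF-1α-KD cells), and edgeR and DESeq2 called 0 of 9 as well. The background depended on the tool, since edgeR called 47 genes (0.391%, 0 higher and 47 lower) and DESeq2 called 283 (2.36%, 96 higher and 187 lower). Even without adjustment 0 of 9 members had a p-value under 0.05, a threshold passed by 12.7% of all tested genes. The 3 libraries of a group were apart from the 3 of the other group for 0 of 9 members, against 19.2% of all tested genes. Of the members, 3 had a higher and 6 a lower mean of log2 values in HIF-1α-KD cells, and their median log2 fold change was -0.07, beside 0.02 for all tested genes. The 95% confidence intervals of the 9 fold changes all included no change, and together they ran from 0.638-fold for Idh3a to 1.62-fold for Acly.

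The targeted gene itself had fewer reads in every library of the knockdown group. Hif1a (ENSMUSG00000021109; chromosome 12, 73901375 to 73947530, plus strand, GRCm38) had normalized counts of 6914, 5424 and 4945 in Mock against 697.3, 3142 and 1928 in knockdown libraries 1 to 3, where a normalized count is a gene's reads divided by 1 factor per library. Its log2 fold change was -1.82 (SE 0.46, n = 3 per group, limma adjusted p = 0.219), and it ran from -2.30 without HIF-1α-KD library 2 to -1.21 without HIF-1α-KD library 1. The groups did not overlap, the knockdown libraries differed widely among themselves, and Hif1a did not pass the adjusted threshold.

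Because HIF-1 binds DNA at short elements with the core ACGTG or GCGTG, the promoter windows of the members were searched for these letters on both strands. RefSeq windows (GRCm38.p6) were found for 8 of the 9 members, and the 250 bases before each annotated start were read. At least 1 window of 7 of these 8 genes held a match, against 41.5% of all genes with a window, and 38.6% of all windows held one. These shares cover all genes with a window, expressed or not, and no background matched to the members' levels was used. Of the 2 windows of Idh1, only window 2, which lies inside the gene, held a match. Ogdh has 6 annotated windows, which overlap in part, and each held between 2 and 4 matches, so that the share per gene is not the share per window. The window of Cs, which codes for citrate synthase, held no match. A palindrome CACGTG counts on both strands, as in Ogdh. The stretches below are shown because they carry the matched core, in capitals, with up to 10 bases on each side, read along the strand of the gene. For Acly the core lies on the opposite strand and reads CACGT here.
Acly: cggccccgccCACGTccgggactac
Ogdh: aagaatcctcACGTGgataccatgt
Idh2: tcctgccctgGCGTGgacccgcctt
Mdh2: cgggtctaggGCGTGctagacaagg
They lie at chr11:100528057-100528081 (minus strand), chr11:6292408-6292432 (plus), chr7:80115409-80115433 (minus) and chr5:135778542-135778566 (plus). The stretch of Acly starts its core 71 bases and that of Idh2 73 bases before the annotated start. The core of Ogdh starts 140 bases before the start that follows its window 5, and that of Mdh2 97 bases before its start. The stretches of Ogdh and Mdh2 lie inside the gene positions given below. The ACGTG form was rarer, being held by 16.6% of all windows, and among members it was present in Acly and Ogdh. A match of letters is a description of the sequence and does not show that the factor binds there.

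Citrate synthase (Cs, ENSMUSG00000005683; chromosome 10, 128337734 to 128362479, plus strand, GRCm38) joins an acetyl group to oxaloacetate and so opens the cycle. The Mock libraries gave 13170, 11730 and 14230 normalized counts of Cs, and the knockdown gave 11760, 12200 and 11610. The knockdown libraries lay within the Mock range but for 1 library just below it, and were closer together. Mean levels were 13043 ± 1255 (SD, n = 3) and 11857 ± 307 (SD, n = 3), and the log2 fold change was -0.13 (SE 0.13, limma adjusted p = 0.714). A transcript of the citrate synthase-like gene Csl aligned to Cs over 1522 bases at 91.9% identity, but Csl had a normalized count of at most 0.957 in any library. The processed pseudogene Gm48254, similar over 469 bases, was not analysed here.

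The isocitrate dehydrogenases convert isocitrate to α-ketoglutarate in separate compartments and with different cofactors. Idh3a (ENSMUSG00000032279; chromosome 9, 54586334 to 54604661, plus strand) codes for the catalytic subunit of the NAD-dependent enzyme of the cycle. Normalized counts of Idh3a were 2538, 2346 and 2812 in Mock against 1716, 2295 and 2499 in knockdown libraries. Its lowest value was in HIF-1α-KD library 1, while library 3 of that group lay inside the Mock range. With a log2 fold change of -0.26 (SE 0.17, 95% confidence interval -0.65 to 0.14), Idh3a had the smallest p-value of the members (limma adjusted p = 0.579), and without HIF-1α-KD library 1 its log2 fold change was -0.10 (limma adjusted p = 0.862).

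Idh2 codes for the mitochondrial NADP-dependent enzyme, which can also run in the direction of citrate (ENSMUSG00000030541; chromosome 7, 80094846 to 80115392, minus strand). The Mock libraries gave normalized counts of 4227, 4589 and 4445, against 5928, 3639 and 3706 for the knockdown. The Mock libraries were close together, whereas 1 knockdown library lay above all of them and the other two lay below. The means were nearly the same, 4420 ± 182 and 4424 ± 1303 (SD, n = 3 each), while the coefficient of variation was 4.12% in Mock against 29.4% in the knockdown. A log2 fold change of -0.04 (SE 0.20, limma adjusted p = 0.954) had a wide interval, from -0.49 to 0.41. Its sign turned when libraries were scaled by their total reads (0.02) and when knockdown library 2 (0.09) or 3 (0.07) was left out.

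The cytosolic and peroxisomal NADP-dependent enzyme is encoded by Idh1 (ENSMUSG00000025950; chromosome 1, 65158616 to 65186500, minus strand). Its counts after normalization were 1982, 1864 and 1797 in Mock against 1839, 1766 and 1740 in knockdown libraries. These 6 values lay close together, the groups overlapped, and Idh1 had the narrowest confidence interval of the members. The log2 fold change was -0.08 (SE 0.13, 95% confidence interval -0.37 to 0.22, limma adjusted p = 0.835).

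**Figure D1:**
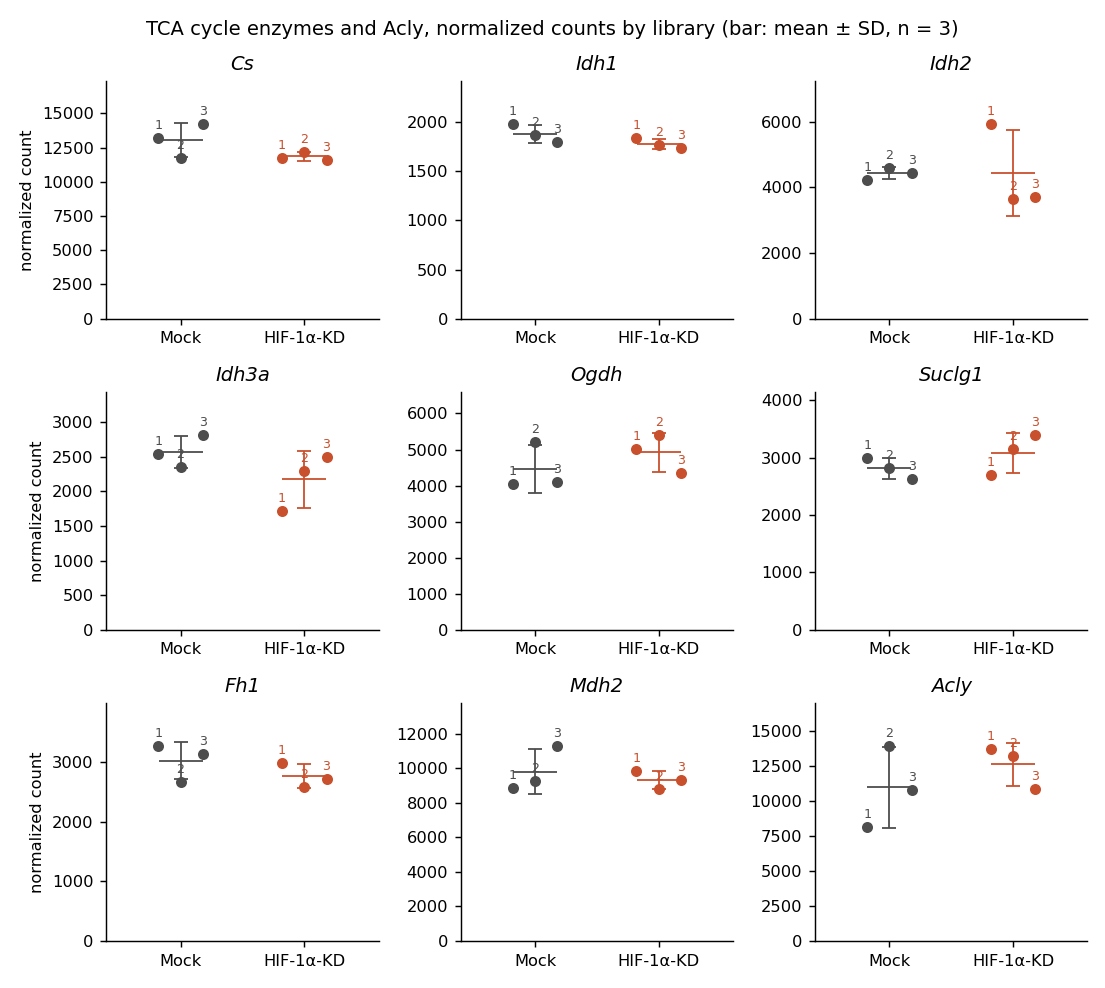
Normalized counts (vertical axes, from 0) of the 9 members in the 3 Mock and 3 HIF-1α-KD libraries. Points are libraries with their replicate numbers, and horizontal bars with whiskers are the mean ± SD (n = 3). The groups overlap in every panel, and HIF-1α-KD library 1 stands apart from the other two of its group for Idh2, where it is highest, and Idh3a, where it is lowest.

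The next steps of the cycle, from α-ketoglutarate to succinate, are made by the α-ketoglutarate dehydrogenase complex and succinyl-CoA ligase. Ogdh codes for the first component of that complex (ENSMUSG00000020456; chromosome 11, 6291633 to 6356642, plus strand). Counts of Ogdh were 4048, 5218 and 4107 in Mock against 5025, 5402 and 4337 in knockdown libraries. Mock library 2 was among the high knockdown values, so the groups overlapped, and the log2 fold change was 0.15 (SE 0.16, 95% confidence interval -0.21 to 0.50, limma adjusted p = 0.736).

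Suclg1 codes for the α subunit of succinyl-CoA ligase (ENSMUSG00000052738; chromosome 6, 73248382 to 73276911, plus strand). The Mock libraries had 2991, 2825 and 2633 normalized counts and the knockdown libraries 2706, 3145 and 3397. Knockdown libraries 2 and 3 lay above the Mock range, and library 1 lay within it. Its log2 fold change was 0.13 (SE 0.14, 95% confidence interval -0.20 to 0.45, limma adjusted p = 0.749).

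The last steps restore oxaloacetate through fumarase and malate dehydrogenase. Fh1, the gene of fumarase (ENSMUSG00000026526; chromosome 1, 175600374 to 175625635, minus strand), had normalized counts of 3271, 2674 and 3135 in Mock against 2986, 2591 and 2719 in knockdown libraries. Mdh2, the gene of mitochondrial malate dehydrogenase (ENSMUSG00000019179; chromosome 5, 135778480 to 135790398, plus strand), had counts of 8832, 9280 and 11280 in Mock against 9834, 8799 and 9333 in knockdown libraries. The groups overlapped for both genes, and Mock library 3 stood above the other 5 libraries for Mdh2. The log2 fold changes were -0.13 for Fh1 (SE 0.14, limma adjusted p = 0.745) and -0.07 for Mdh2 (SE 0.14, limma adjusted p = 0.880). That of Mdh2 turned to 0.04 without Mock library 3.

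ATP citrate lyase, encoded by Acly (ENSMUSG00000020917; chromosome 11, 100476353 to 100528000, minus strand), acts in the cytosol on citrate that has left the cycle. Its normalized counts were 8155, 13910 and 10810 in Mock against 13730, 13220 and 10870 in knockdown libraries. Mock libraries 1 and 3 were below every knockdown library, but Mock library 2 was above them all. Means of 10958 ± 2880 and 12607 ± 1525 (SD, n = 3 each) gave a log2 fold change of 0.23 (SE 0.21, limma adjusted p = 0.679), with the widest interval of the members, from -0.24 to 0.70. Without Mock library 2 the log2 fold change of Acly was 0.42 (limma adjusted p = 0.414), and without Mock library 1 it was 0.03 (limma adjusted p = 0.976). None of the 9 members shared exon sequence with an overlapping gene in the annotation. Exons of Hif1a, in contrast, shared at most 279 bases with an exon of Gm49321 on the same strand and at most 337 with one of Gm15283 on the opposite strand. These are upper bounds, because a base in several annotated exons of Hif1a was counted for each.

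Transcript levels were compared between genes per length, as FPKM (reads scaled to the length of the gene, by its deposited width, and to the reads of the library). Mdh2 was highest, at 416 ± 52.0 FPKM in Mock against 411 ± 15.7 FPKM in HIF-1α-KD cells (SD, n = 3), and Idh3a was lowest, at 42.6 ± 2.84 and 37.6 ± 7.83 FPKM. The highest was thus 9.76 times the lowest in Mock against 10.9 times in HIF-1α-KD cells. The whole group was well expressed, since even Idh3a stood at percentile 76.9 of the tested genes by mean Mock FPKM and the median tested gene had 13.4 FPKM.

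Between these extremes the Mock means were 185 ± 55.3 FPKM for Acly, 184 ± 12.3 for Cs, 158 ± 11.9 for Idh2, 115 ± 7.86 for Fh1, 92.9 ± 6.72 for Suclg1, 68.9 ± 3.76 for Idh1 and 67.4 ± 12.7 for Ogdh (SD, n = 3). In Mock cells the neighbours Acly and Cs could not be ordered beyond their spread, nor could Idh1 and Ogdh. In HIF-1α-KD cells the means were 220 ± 23.4 FPKM for Acly, 174 ± 6.75 for Cs, 163 ± 43.7 for Idh2, 109 ± 5.50 for Fh1, 106 ± 14.3 for Suclg1, 77.1 ± 8.35 for Ogdh and 67.8 ± 0.468 for Idh1. There the neighbours Cs and Idh2, and Fh1 and Suclg1, overlapped. The order was the same in both groups for 7 of the 9 genes, and Idh1 and Ogdh exchanged places.

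The order of levels rests on the length assigned to each gene. The deposited widths were between 940 bases for Mdh2 and 2830 bases for Cs, while the merged exons of the annotation were between 2.04 times that width for Cs and 3.82 times for Suclg1. Per kilobase of merged exons, Mdh2 was still first and Idh3a last of the Mock means, at 110 and 20.2 FPKM, but Suclg1 moved from rank 6 to rank 8 and Cs from rank 3 to rank 2. The comparison of groups does not depend on this length, which is the same in every library.

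**Figure D2:**
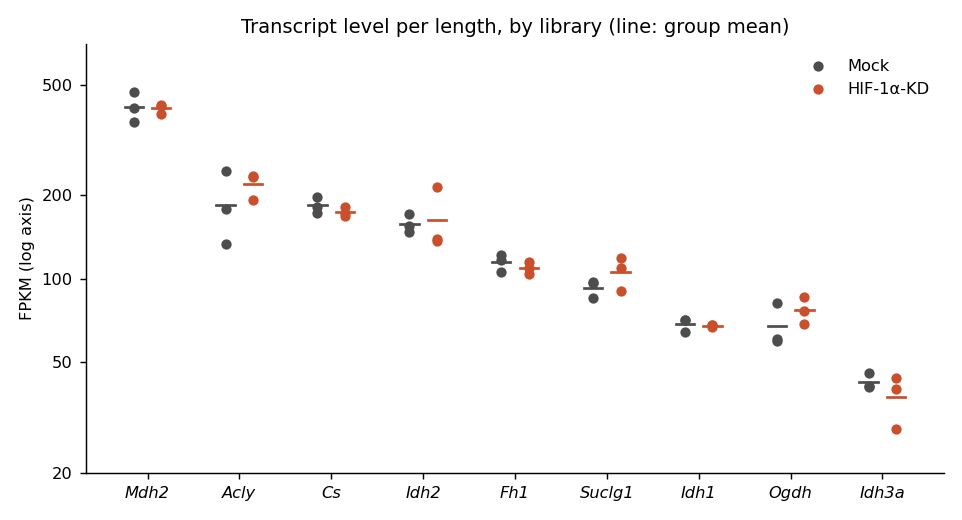
FPKM of each member (vertical log axis) by library, with Mock in grey and HIF-1α-KD in orange and a line at each group mean. The order runs from Mdh2, at 416 FPKM in Mock, to Idh3a, at 42.6 FPKM, and the colors overlap for every gene.

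Ratios between members of a library do not depend on how the libraries were scaled. The FPKM ratio of Idh1 to Idh2, the cytosolic to the mitochondrial NADP-dependent enzyme, was 0.482, 0.418 and 0.415 in Mock against 0.319, 0.499 and 0.482 in knockdown libraries. The values overlapped, with HIF-1α-KD library 1 the lowest of all. On the log2 scale the means were -1.19 ± 0.12 and -1.24 ± 0.36 (SD, n = 3 each), a difference of -0.04 (two-sided exact permutation p = 1, adjusted p = 1 over 2 ratios). The difference turned to 0.03 without Mock library 1 and to 0.17 without HIF-1α-KD library 1.

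The ratio of Acly to Cs sets citrate cleavage beside citrate synthesis. It was 0.736, 1.41 and 0.904 in Mock against 1.39, 1.29 and 1.11 in knockdown libraries. All 3 knockdown libraries were above 2 of the 3 Mock libraries and below the other one. The mean log2 ratio was -0.03 ± 0.48 in Mock against 0.33 ± 0.16 in the knockdown (SD, n = 3 each), a difference of 0.36 (two-sided exact permutation p = 0.4, adjusted p = 0.8). With 3 libraries against 3 the smallest p-value this test can give is 0.1.

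**Figure D3:**
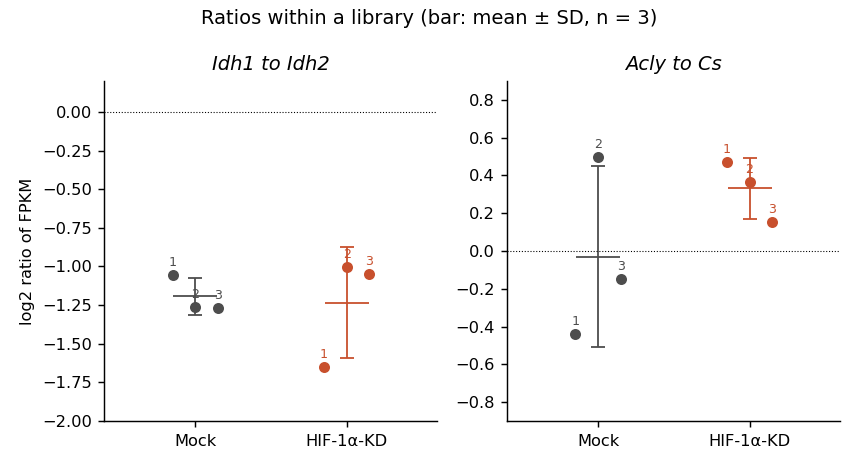
Log2 ratio of FPKM values within each library (vertical axes) for Idh1 to Idh2 (left) and Acly to Cs (right). Points are libraries with replicate numbers, and bars are the mean ± SD (n = 3). The groups overlap in both panels, and the Mock libraries are spread most for Acly to Cs, from -0.44 to 0.50.

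A few libraries lay farther from a gene's mean than the groups lay from each other for any member. Taken as the deviation of each library from the gene's mean log2 value over the 6 libraries, the 3 largest departures were Acly in Mock library 1 (-0.51), Idh3a in HIF-1α-KD library 1 (-0.45) and Idh2 in HIF-1α-KD library 1 (0.44). HIF-1α-KD library 1 was thus low in Idh3a and high in Idh2, while the other subunits of the NAD-dependent enzyme were not low there, at normalized counts of 1839, 1892 and 1748 for Idh3b and 3324, 2743 and 2776 for Idh3g in the knockdown libraries. No other deviation of a member was larger than that of Idh3a in Mock library 3 (0.26).

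**Figure D4:**
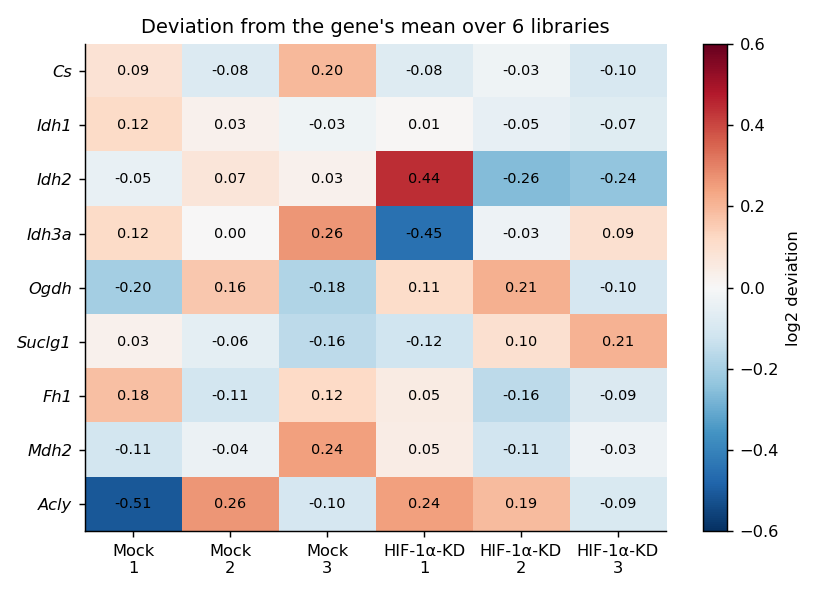
Deviation of each library (columns) from the mean log2 normalized count of each member (rows) over the 6 libraries, in log2 units, with red above and blue below the mean. The strongest colors are single cells of Acly, Idh3a and Idh2, and no column has 1 color throughout.

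Transcripts listed as markers of other cell types were present in the sorted samples, in amounts that differed between libraries. Summed normalized counts of 7 leukocyte markers were 4040 to 4602 in Mock libraries and 2481, 2834 and 13407 in knockdown libraries 1 to 3. Lyz2 made up most of every sum. All of these markers but Cd3e were highest in knockdown library 3, among them Lyz2 (8877), C1qb (1930), C1qa (1690) and Cd68 (657.3). The T cell marker Cd3e was near 0 everywhere, and no listed marker was at 0 in every library. Sums of 4 endothelial markers were 505 to 615 in Mock against 310 to 481 in knockdown libraries, and Cdh5 made up most of each sum, with 422.3, 532.1 and 568.9 against 285.5, 395.7 and 197.5. The other 3 (Pecam1, Kdr and Tek) overlapped between the groups. Sums of 2 hemoglobin genes were 450 to 1049 and 1.20 to 433. The 4 fibroblast and pericyte markers summed to 31215 to 49671 in Mock against 22859 to 37495 in knockdown libraries, whereas 6 epithelial markers, which a colon carcinoma might carry, summed to only 64.1 to 517 and 72.8 to 117. In such bulk samples fewer cells of a type and less RNA per cell cannot be told apart. Without HIF-1α-KD library 3, which had the highest sum of leukocyte markers, the log2 fold change was 0.07 in place of -0.04 for Idh2, 0.05 in place of 0.13 for Suclg1 and -0.37 in place of -0.26 for Idh3a. The groups then did not overlap for Idh3a alone of the 9 members, beside 30.8% of all tested genes. Whether the tumor line itself makes some of these markers was not tested, nor was the part of the transcripts of other cell types in these results.

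The other subunits of the cycle enzymes did not pass the test either. Of 10 such genes, among them the succinate dehydrogenase subunits, 2 had a higher and 8 a lower mean in HIF-1α-KD cells. In limma 0 passed an unadjusted p-value under 0.05, beside 12.7% of all tested genes. The groups were apart for 0 of the 10, beside 19.2% of all tested genes. Their log2 fold changes ran from -0.25 to 0.05, with a median of -0.05. The most negative was Sdhd, a membrane anchor of succinate dehydrogenase, with counts of 4980, 3943 and 4344 in Mock against 3599, 4084 and 3433 in knockdown libraries (log2 fold change -0.25, limma adjusted p = 0.514). Next was Sucla2, the ATP-forming β subunit of succinyl-CoA ligase, at -0.15 (limma adjusted p = 0.760), which turned to 0.01 without Mock library 1.

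Another list held 11 genes that link the cycle to pyruvate, glutamine and aspartate, some by bringing carbon in and some, such as Me2 and Pck2, by drawing malate or oxaloacetate off. Of these, 0 passed the adjusted threshold in limma and 3 had an unadjusted p-value under 0.05, or 27.3%, beside 12.7% of all tested genes. The groups did not overlap for 5 of the 11, or 45.5%, beside 19.2% of all tested genes. The 5 were Me2, Glud1 and Got2, lower in the knockdown, and Gpt2 and Pck2, higher. Me2, the mitochondrial malic enzyme that converts malate to pyruvate, had counts of 3380, 2926 and 2723 in Mock against 2089, 1761 and 1681 in knockdown libraries. Every knockdown library was below every Mock library, with a log2 fold change of -0.71 (SE 0.15, limma adjusted p = 0.154). It was the one gene of these lists that DESeq2 called (adjusted p = 0.00716), and over the alternatives its adjusted p-value ran from 0.00716 to 0.403.

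Glud1, glutamate dehydrogenase, makes α-ketoglutarate from glutamate, and Gpt2, the mitochondrial alanine aminotransferase, makes it while forming alanine from pyruvate. Glud1 had counts of 6698, 4829 and 5478 in Mock against 4308, 4091 and 4498 in knockdown libraries. Gpt2 had counts of 2751, 2276 and 2573 in Mock against 3313, 3062 and 3543 in knockdown libraries. The groups were apart for both genes, in opposite directions. The log2 fold changes were -0.39 for Glud1 (limma adjusted p = 0.367) and 0.39 for Gpt2 (limma adjusted p = 0.332), and neither passed the adjusted threshold. The unadjusted p-value of Glud1 was no longer under 0.05 when any library other than Mock library 2 was left out, and that of Gpt2 when Mock library 2 or HIF-1α-KD library 3 was.

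For the export and use of citrate in the cytosol, 7 genes were tested, of which 0 passed the adjusted threshold in limma, 1 had an unadjusted p-value under 0.05 (14.3%, beside 12.7% of all tested genes) and 3, Acaca, Aco1 and Me1, had groups that did not overlap (42.9%, beside 19.2%). The gene under the unadjusted threshold was Acaca, acetyl-CoA carboxylase, the first committed enzyme of fatty acid synthesis and downstream of Acly. Its counts were 1634, 2385 and 2192 in Mock against 2563, 2836 and 2693 in knockdown libraries, with a log2 fold change of 0.40 (SE 0.17, limma adjusted p = 0.384). It fell to 0.24 without Mock library 1, and Acaca was no longer under the unadjusted threshold in edgeR, in DESeq2 or on leaving out any library other than Mock library 2. Acss2, which makes acetyl-CoA from acetate and so bypasses Acly, had counts of 619.2, 607.7 and 721.1 in Mock against 351.5, 634.3 and 437.8 in knockdown libraries (log2 fold change -0.49, limma adjusted p = 0.420). Its groups overlapped through HIF-1α-KD library 2, without which the log2 fold change was -0.72 and the unadjusted p-value was under 0.05, while without HIF-1α-KD library 1 it was -0.30.

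D2hgdh, whose enzyme clears hydroxyglutarate, a by-product of α-ketoglutarate, had a log2 fold change of -0.09 (limma adjusted p = 0.904). Ogdhl, a relative of Ogdh, had 0 reads in every library and was not tested. Over these 4 lists together, 4 of 29 tested genes had an unadjusted p-value under 0.05, or 13.8%, beside 12.7% of all tested genes, and 8 had groups that did not overlap, or 27.6%, beside 19.2% of all tested genes. No test was made of the lists as lists.

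**Figure D5:**
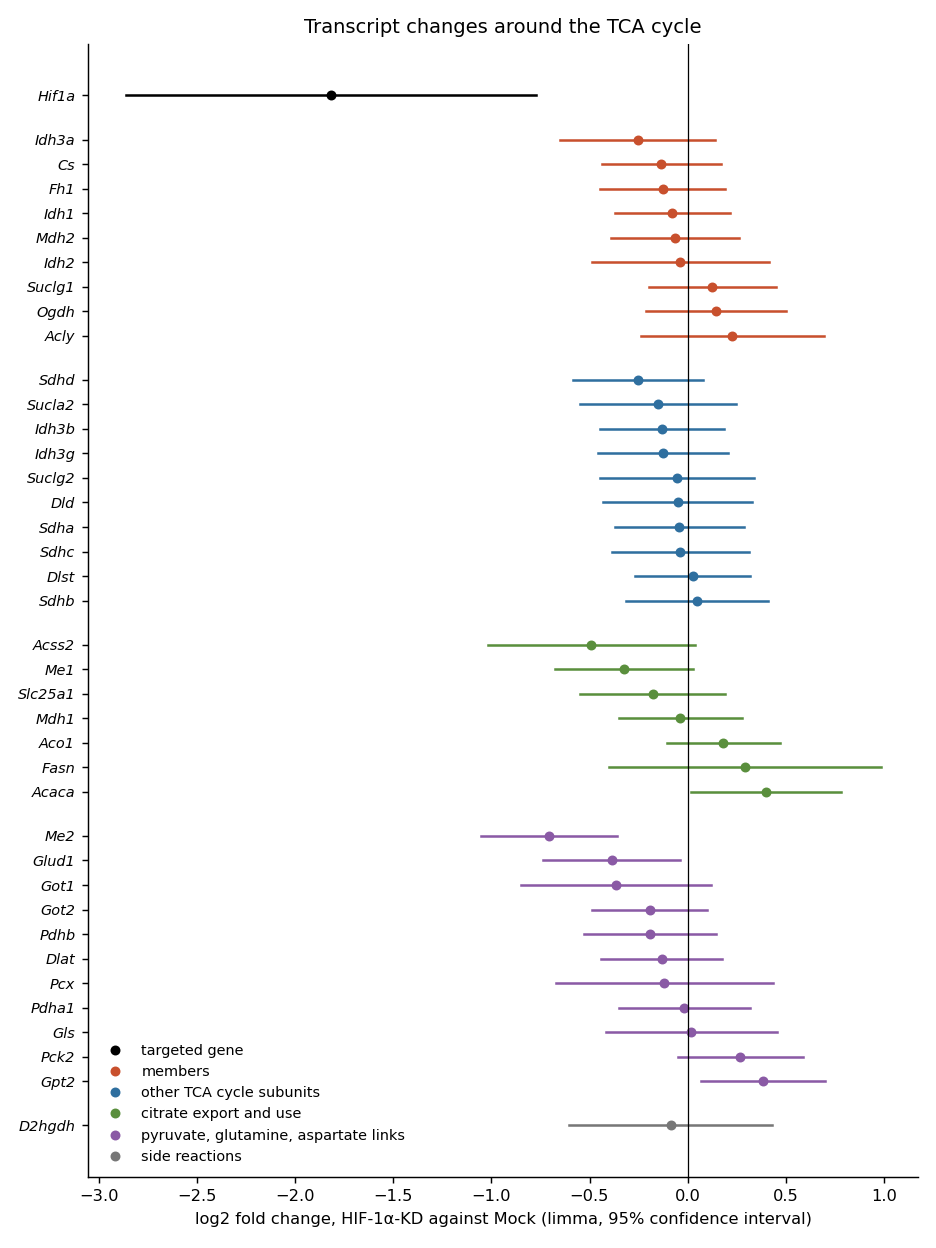
Log2 fold change of HIF-1α-KD against Mock (horizontal axis) with its 95% confidence interval from limma for Hif1a, the 9 members and the 29 tested genes of the 4 surrounding lists. Every member's interval crosses 0, while those of Hif1a, Me2, Glud1, Gpt2 and Acaca do not.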

How the data were processed

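The authors aligned single-end reads of the 6 libraries with STAR and counted them on genes with featureCounts. The submitters' notes name GRCm38, whereas the methods name a human assembly, and the identifiers are those of mouse. The deposited normalized counts are a signal, the reads of a gene divided by 1 factor per library, rounded to 4 significant digits. Also deposited by the authors and used were FPKM values and gene widths. Their own comparison (log2 ratio, p-value, false discovery rate) was not used.

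Whole reads were recovered for 100% of values up to 300 reads (tolerance 0.1), giving 19845852 to 30809139 reads on genes per library and 1473 to 17070 reads per member and library. After filterByExpr (edgeR 4.0.16, minimum count 10), limma 3.58.1 was fitted on log2(normalized count + 1) with its mean-variance trend, two-sided, with Benjamini-Hochberg adjustment over 12014 genes. Alternatives were edgeR and DESeq2 1.42.0 on recovered reads, other scalings, filters and pseudocounts (0.1 and 10), a replicate block, and leaving out each library. The fits were tested on simulated data, in R 4.3.3. Positions came from GENCODE.

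The members and lists were chosen with earlier results of these data known. A few genes were left out of the lists and are not reported here. Named genes were the 9 members, Hif1a and, of each list, those at an unadjusted p-value under 0.05 and the 2 with the largest absolute log2 fold change. Got2, Pck2, Aco1, Me1, Idh3b, Idh3g, Fasn and the markers were named outside that rule.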

Additional observations from a re-analysis of the deposited data

How the results depend on the processing

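Over 15 alternatives (6 that leave out a library and 9 others), 0 of 135 pairs of a member and an alternative reached an adjusted or unadjusted p-value under 0.05 by limma, edgeR or DESeq2, and the smallest adjusted p was 0.414, for Acly without Mock library 2. Log2 fold changes of members ran from -0.37 to 0.42, and 131 of the 135 kept their direction. The filters and the replicate block cannot change a member's log2 fold change, and the pseudocounts barely do at such counts. Those pairs therefore say nothing about how stable a direction is. Among members the direction turned for Idh2 with scaling by library size (0.02), and on leaving out a library for Idh2 (-0.27 to 0.09, above 0 without HIF-1α-KD library 2 or 3) and Mdh2 (-0.14 to 0.04). Outside the members it turned for Sucla2 (-0.27 to 0.01). Without turning, leaving out a library moved Cs and Fh1 between -0.21 and -0.07, Ogdh between 0.08 and 0.27 and Suclg1 between 0.05 and 0.22. The median of the members ran from -0.10 without HIF-1α-KD library 1 (0.03 for all tested genes) to -0.01 with scaling by library size (0.08 for all). The Idh1 to Idh2 difference ran from -0.16 to 0.17 (0.03 without Mock library 1 and 0.17 without HIF-1α-KD library 1), and the Acly to Cs difference from 0.16 to 0.62. Members whose groups did not overlap numbered 0 to 5 when a library was left out: 5 without Mock library 2, beside 31.0% of all genes, 3 without HIF-1α-KD library 1, beside 30.8%, and 1 without Mock library 3, beside 31.1%, or HIF-1α-KD library 3, beside 30.8%. Of the surrounding genes, 1 (Me2) passed the adjusted threshold in DESeq2, beside 2.36% of all tested genes. When a library was left out, 2 to 3 had an unadjusted p-value under 0.05 (2 without Mock library 1, HIF-1α-KD library 1 or HIF-1α-KD library 3). In these settings, in that order, 1025 of 12164, 1442 of 12176 and 1397 of 12114 of all tested genes passed. Where 3 passed, it was 1565 of 12180 (without Mock library 2), 1444 of 12188 (Mock library 3) and 1069 of 12171 (HIF-1α-KD library 2). Over all genes, those higher at the adjusted threshold were 1 in limma, 96 in DESeq2, 0 in edgeR, with TMM scaling or with the block, and 0 to 6 without 1 library, and those lower were 46 in limma, 187 in DESeq2, 0 with a replicate block (1324 at an unadjusted p-value under 0.05), and 0 to 32 without 1 library (2, 10 and 0 without Mock library 1, 2 or 3, and 0 and 8 without HIF-1α-KD library 2 or 3; at an unadjusted p-value, 1444 genes passed without Mock library 3 and 1069 without HIF-1α-KD library 2). The replicate block left 0 of 9 members called. With groups of equal size a block cannot change a log2 fold change or a ratio difference. The median of -0.07 and the ratio differences of -0.04 and 0.36 under the block were therefore fixed beforehand. Libraries of the same number did not deviate together (correlations -0.139, -0.123 and 0.0228), so the numbers were not taken as pairs. The cause of these changes was not tested. With 3 libraries per group, changes of any size within a member's confidence interval remain possible.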

Other observations

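The Mock library with the lowest Acly also had the lowest Fasn and Acaca, the genes of fatty acid synthase and of the enzyme before it. Fasn had normalized counts of 9906, 22560 and 23770 in Mock libraries 1 to 3 against 21040, 20980 and 22110 for the knockdown. Acaca was 1634 in Mock library 1 and between 2192 and 2836 in the other 5 libraries. The log2 fold change of Fasn over all libraries was 0.29 (SE 0.30, limma adjusted p = 0.728).

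HIF-1α-KD library 1, in which Idh2 was highest (5928) and Idh3a lowest (1716), was also the library with the lowest Hif1a (697.3). With 3 libraries in the group no relation across libraries was computed.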
